A study of Homo sapiens with 4 samples.

Results

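The genes described here are 9 genes of the NRF2 antioxidant pathway, NFE2L2, KEAP1, NQO1, HMOX1, GCLM, GCLC, SRXN1, TXNRD1 and SOD2, chosen by name out of 13165 genes in the table, and all 9 were found. RNA was sequenced from TPC1 cells, a line established from a human papillary thyroid carcinoma, with 2 libraries in each of 2 groups. TPC1-Vector cells carried the empty vector, and TPC1-INAVA cells carried the same vector with the INAVA cDNA, whose gene is also named C1orf106. Both groups were grown in DMEM with 10% FBS, and per the methods both were made by retroviral transfer and selected with puromycin, so vector and selection are shared by the control. The labels do not say whether the libraries of a group came from separate cultures. The table holds 1 FPKM value (sequenced fragments divided by transcript length and by the mapped total of the library) per gene and group, so no value below has an error, no difference could be tested from these values, and the depth is unknown.

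NFE2L2 encodes NRF2, a transcription factor that pairs with small MAF proteins and binds the antioxidant response element in front of its target genes. In unstressed cells KEAP1 holds NRF2 and passes it to a CUL3 ubiquitin ligase for degradation, and oxidants or electrophiles that modify KEAP1 let NRF2 accumulate. Its targets make glutathione, restore thioredoxin and peroxiredoxins, reduce quinones, break down heme and store iron. NRF2 is controlled largely at the level of the protein, so the level of its mRNA is not a measure of its activity.

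The core letters of the antioxidant response element, TGACNNNGC, were looked for on both strands of the RefSeq promoter windows (GRCh38.p14, 250 bases before to 50 after a start), because these members share a regulator. A window was found for 8 of the 9 genes, and HMOX1 had no entry. The letters occurred in windows of 3 genes, GCLM, KEAP1 and TXNRD1. The matches that lie wholly before a start are shown with 10 bases on either side, 5′ to 3′ on the strand that reads TGAC, with the match in capitals.
GCLM: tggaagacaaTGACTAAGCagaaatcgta
KEAP1: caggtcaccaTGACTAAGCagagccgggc
KEAP1: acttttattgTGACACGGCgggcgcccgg
TXNRD1: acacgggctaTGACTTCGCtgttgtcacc
TXNRD1: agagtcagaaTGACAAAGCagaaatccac

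Positions in this paragraph span the 29 bases shown, and strands are those printed. Distances are to the base of the match farthest upstream of the start along the gene. The GCLM match (chr1:93909446-93909474, forward strand of the genome) reached 34 bases before the start. The KEAP1 matches lie 31 bases before the start (chr19:10502784-10502812, forward strand) and 54 bases before it (chr19:10502807-10502835, reverse strand), and the first holds the same 9 letters as GCLM. The TXNRD1 matches belong to different starts of that gene, 99 bases before an upstream start (chr12:104215670-104215698, forward strand) and 102 bases before a downstream start (chr12:104286920-104286948, reverse strand). The windows of NFE2L2, NQO1, GCLC, SRXN1 and SOD2 held no match, which says only that these letters are not in those windows. Of all 35116 windows, 13.3% held the letters, and 19.8% of the 9238 measured genes with a window had at least 1.

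INAVA itself, listed as C1orf106 (chr1:200891499-200915736, hg38), stood at 7.96 FPKM in TPC1-Vector and at 122.5 FPKM in TPC1-INAVA, 15.4-fold higher. Of 7 thyroid follicular markers, PAX8 was measured at 60.1 and 55.7 FPKM and FOXE1 at 5.26 and 5.89 FPKM in vector and INAVA cells, and the other 5 were not analysed here. Of 5 fibroblast markers, COL1A1 (0.937 and 0.571 FPKM) and LUM (0.383 and 0.225 FPKM) were measured, of 5 leukocyte markers CD14 (0.295 and 0.236 FPKM) and CD68 (5.76 and 8.67 FPKM), and of 4 endothelial markers none. Of 6 epithelial markers, KRT18 (140 and 212 FPKM), KRT8 (23.4 and 10.5 FPKM) and KRT7 (1.97 and 2.01 FPKM) were measured, and KRT18 and KRT8 share a position in the table. The part of these markers in the differences below was not tested. In bulk RNA, fewer cells of a type and less RNA per cell cannot be told apart.

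NFE2L2 and its inhibitor differed little between the groups. NFE2L2 (chr2:177230303-177265131, reverse strand) stood at 59.3 FPKM in vector cells and at 58.5 FPKM in INAVA cells, a ratio of 0.988. KEAP1 (chr19:10486120-10503378, reverse strand) stood at 54.6 FPKM in vector cells and at 49.955 FPKM in INAVA cells, a ratio of 0.914. The level of NFE2L2 relative to KEAP1 was thus 1.09 in vector cells and 1.17 in INAVA cells. On the log2(FPKM + 0.5) scale, used for all differences below and always taken as TPC1-INAVA minus TPC1-Vector, NFE2L2 differed by -0.018 and KEAP1 by -0.13. Among the 6607 genes whose mean level was 10 FPKM or more, 90.5% lay at least as far from 0 as NFE2L2 and 40.8% at least as far as KEAP1.

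Glutamate-cysteine ligase makes the first step of glutathione synthesis from a catalytic subunit, GCLC, and a modifier subunit, GCLM. GCLC (chr6:53497341-53545129, reverse strand) stood at 15.1 FPKM in vector cells and at 13.4 FPKM in INAVA cells. GCLM (chr1:93885200-93909598, reverse strand) stood at 54.2 FPKM in vector cells and at 56.7 FPKM in INAVA cells. The catalytic subunit was slightly lower and the modifier slightly higher in INAVA cells, at log2 differences of -0.16 and 0.067. The modifier was listed above the catalytic subunit in both groups, 3.60-fold in TPC1-Vector and 4.24-fold in TPC1-INAVA. Of genes at 10 FPKM or more, 31.5% lay at least as far from 0 as GCLC and 65.6% at least as far as GCLM.

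TXNRD1 is the cytosolic thioredoxin reductase, which keeps thioredoxin reduced with NADPH. It lies at chr12:104215779-104350307 on the forward strand and stood at 198 FPKM in vector cells and at 175 FPKM in INAVA cells, a log2 difference of -0.18. SRXN1, sulfiredoxin, which repairs over-oxidized peroxiredoxins, lies at chr20:646624-653370 on the reverse strand and stood at 72.8 FPKM in vector cells and at 74.7 FPKM in INAVA cells, a log2 difference of 0.038. The reductase was thus lower by a ratio of 0.883 and sulfiredoxin nearly level at 1.03. The table gives TXNRD1 and EID3 the same position. EID3 was at 0.341 and 0.346 FPKM in vector and INAVA cells. In GENCODE release 29 TXNRD1, NFE2L2, NQO1 and GCLC each overlap an antisense gene, and reads of such a pair cannot be told apart without strand. Whether strand was used in counting is not given in the sources used here. SRXN1 overlaps a protein-coding gene on its own strand in that release, where strand would not separate the reads of the pair.

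NQO1 and HMOX1, both widely used as readouts of NRF2 activity, were the members with the widest differences, and they pointed in opposite directions. NQO1, the quinone reductase (chr16:69709401-69726668, reverse strand), stood at 260 FPKM in vector cells and at 187 FPKM in INAVA cells, 1.39-fold lower. HMOX1, heme oxygenase 1, which opens the heme ring and frees its iron (chr22:35381067-35394214, forward strand), stood at 63.1 FPKM in vector cells and at 86.7 FPKM in INAVA cells, 1.37-fold higher. The level of NQO1 relative to HMOX1 went from 4.12 in vector cells to 2.15 in INAVA cells. The log2 difference was -0.48 for NQO1 and 0.46 for HMOX1. Of genes at 10 FPKM or more, 3.90% lay at least as far from 0 as NQO1 and 4.56% at least as far as HMOX1. In the same direction alone, 1.82% lay as low as NQO1 and 2.47% as high as HMOX1. HMOX1 is also controlled by BACH1, a repressor released by heme, and by other stress factors.

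SOD2, the mitochondrial manganese superoxide dismutase, is known as a target of NF-κB more than of NRF2. SOD2 (chr6:159679116-159693321, reverse strand) stood at 74.2 FPKM in vector cells and at 77.9 FPKM in INAVA cells, a log2 difference of 0.069. Of genes at 10 FPKM or more, 64.2% lay at least as far from 0. Of 7 NF-κB feedback genes, 6 lay above 0 and 1 below, with a median of 0.20, beside 49.2% of all genes below 0. The median was 0.14 over those with a mean of 10 FPKM or more. With a pseudocount of 0.1, with none and with 1 it was 0.27, 0.29 and 0.155. The gene below 0 was NFKB1, at 21.0 FPKM in vector cells and at 20.5 FPKM in INAVA cells. Of the 6 above 0, NFKB2 at 0.0032 and BIRC3 at 0.046 were close to 0. NFKBIE, an inhibitor of NF-κB, was past 1.5-fold, as were 2.24% of all genes in that direction, at 6.29 FPKM in vector cells and at 10.2 FPKM in INAVA cells, and NFKBIA, another inhibitor, was not, at 16.0 and 19.6 FPKM.

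**Figure D1:**
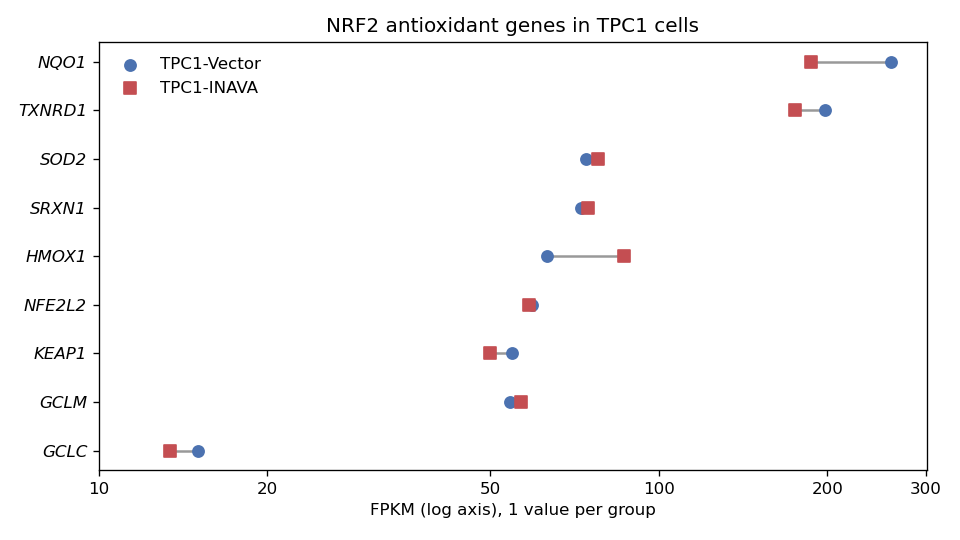
Level in FPKM of each of the 9 NRF2 antioxidant genes in TPC1-Vector and TPC1-INAVA, 1 combined value per group and therefore without error bars. NQO1 was at 260 and 187 FPKM, HMOX1 at 63.1 and 86.7 FPKM, and the pairs of values of the other 7 genes lie close together.

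None of the 9 genes differed by 1.5-fold in either direction. Of the 12305 genes whose mean level was 0.5 FPKM or more, 3.7% did, 2.24% of them higher and 1.45% lower in INAVA cells, so a count of 0 among 9 genes is close to this background. At a lower threshold of 0.32 on the log2 scale, 2 of the 9 were past it, HMOX1 higher and NQO1 lower, beside 14.4% of all genes and 10.0% of the genes at 10 FPKM or more. The other 7 members had ratios between 0.883 and 1.05. In sign the members were divided, 4 above 0 and 5 below, with a median of -0.018 beside 0.0033 over all genes, whose quartiles were -0.12 and 0.13.

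Levels of FPKM are per length and can be ordered between genes. In TPC1-Vector the order from high to low was NQO1, TXNRD1, SOD2, SRXN1, HMOX1, NFE2L2, KEAP1, GCLM and GCLC. In TPC1-INAVA HMOX1 was listed above SOD2 and SRXN1, and GCLM above KEAP1. With 1 value per group there is no spread against which neighbours in either order can be compared. The members ranged from GCLC above 54.9% of the measured genes in INAVA cells to NQO1 above 98.1% in vector cells, beside a median gene of 11.3 FPKM in each group.

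**Figure D2:**
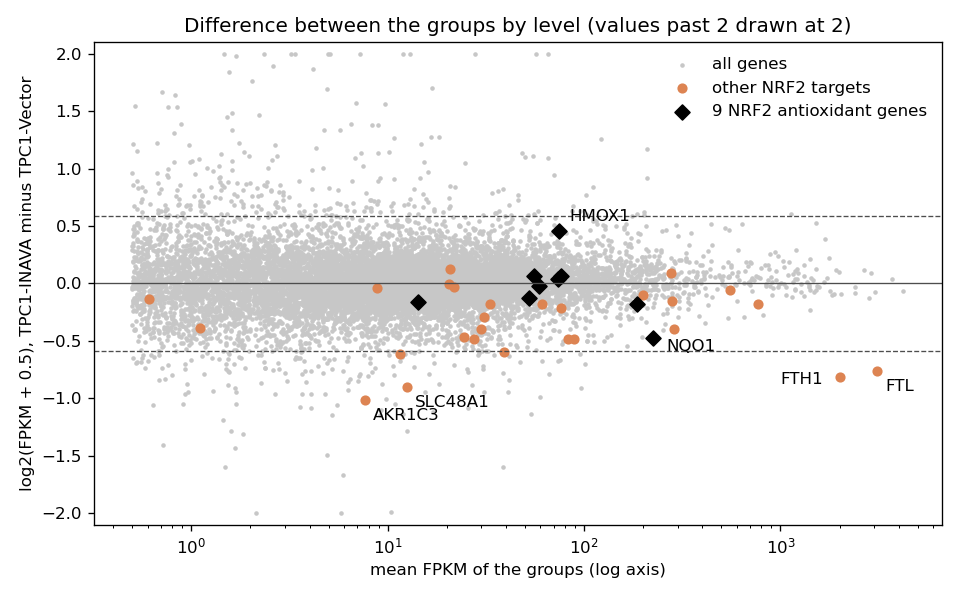
Difference of log2(FPKM + 0.5), TPC1-INAVA minus TPC1-Vector, against mean FPKM on a log axis, with grey points for all genes, orange circles for 27 other reported NRF2 targets, black diamonds for the 9 genes, and dashed lines at 1.5-fold. The 9 genes lie between the dashed lines, while 6 other targets lie below the lower one. The 15 genes past 2 are drawn at 2, and 1 entry above 5000 FPKM is not drawn.

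Genes that lie near each other can differ together between cell pools, so each member was set beside the genes at 1 FPKM or more that start within 1 Mb of it. NQO1 had 26 such neighbours, whose differences ran from -0.35 to 0.19 with a median of -0.0033, and NQO1 at -0.48 lay below all of them. HMOX1 had 7 neighbours between -0.42 and 0.32, with a median of -0.16, and HMOX1 at 0.46 lay above all of them. The difference of NQO1 minus its neighbours' median was -0.47 and that of HMOX1 was 0.62. The other 7 members lay within the range of their neighbours, whose medians ran from -0.042 for GCLC to 0.036 for NFE2L2. The neighbours' median depended on the distance taken. Within 500 kb and 2 Mb it was -0.26 and -0.091 for HMOX1, -0.028 and -0.011 for NFE2L2, 0.072 and 0.045 for TXNRD1, 0.033 and -0.011 for NQO1, -0.034 and -0.094 for GCLC, 0.041 and -0.0020 for GCLM, and -0.059 and -0.030 for SOD2.

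**Figure D3:**
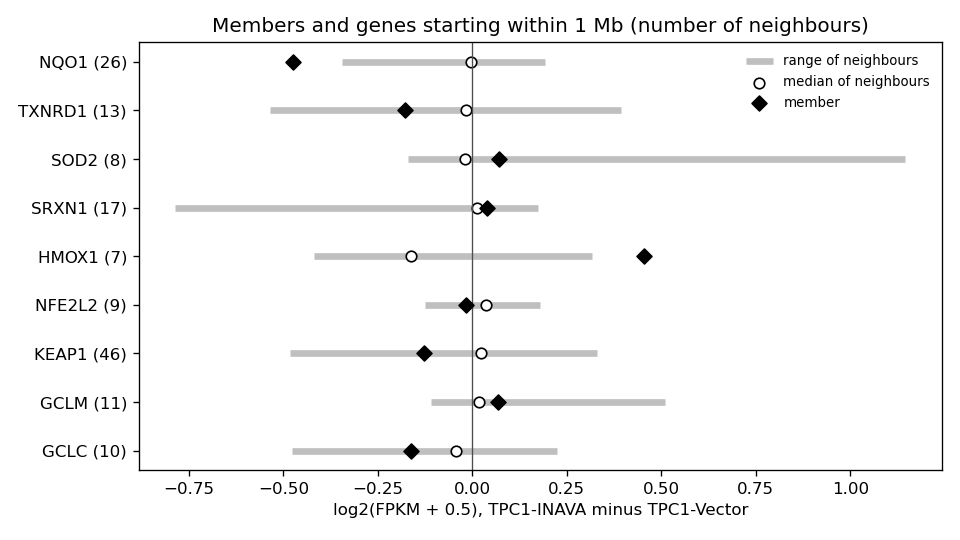
Difference of log2(FPKM + 0.5), TPC1-INAVA minus TPC1-Vector, of each of the 9 genes (black diamonds), with the range (grey bar) and median (open circle) of the genes starting within 1 Mb, whose number stands beside the name. NQO1 at -0.48 lies left of its neighbours' range and HMOX1 at 0.46 right of it.

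Of 14 genes for partners or relatives of NRF2 or for proteins that set its turnover, 12 were measured. Of these, 9 lay above 0 and 3 below, with a median of 0.030, and 0 were past 1.5-fold. For this and each list that follows, 49.2% of all genes lay below 0. Past 1.5-fold were 2.24% of all genes higher and 1.45% lower. SQSTM1, the autophagy receptor p62 that takes KEAP1 away and is itself a target of NRF2, stood at 325 FPKM in vector cells and at 246.5 FPKM in INAVA cells, a log2 difference of -0.40, and 2.97% of genes at 10 FPKM or more lay as low. RBX1, the RING subunit of the CUL3 ligase, stood at 83.5 and 87.9 FPKM, and NFE2L1, a relative of NRF2, at 54.8 and 60.4 FPKM. BTRC, a ubiquitin ligase adaptor that also targets NRF2, stood at 10.7 and 8.61 FPKM (log2 difference -0.30, beside -0.32 for the median of its neighbours), and MAFK, a small MAF partner, at 5.01 and 6.35 FPKM (0.31). The table gives SQSTM1 a position shared with C5orf45 and MGAT4B.

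The wider glutathione genes lay mostly below 0, with 15 of 21 measured genes below, 6 above and a median of -0.11, which was -0.068 over those with a mean of 10 FPKM or more. SLC7A11, the cystine importer that feeds GCLC and GCLM, was past 1.5-fold, at 14.2 FPKM in vector cells and at 9.05 FPKM in INAVA cells. GGT1, which cleaves glutathione outside the cell, was too, at 0.898 and 0.398 FPKM, but not with a pseudocount of 1, where its log2 difference was -0.44. GSTP1, a glutathione transferase with the highest mean level among them, stood at 389 and 371 FPKM. GPX1, a glutathione peroxidase, was higher in INAVA cells without reaching 1.5-fold, at 298 and 406 FPKM. No gene of the list was past 1.5-fold higher.

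The thioredoxin and peroxiredoxin genes lay mostly above 0, 10 of 15, with a median of 0.085. SESN1, a sestrin known as a p53 target, was past 1.5-fold, at 8.20 FPKM in vector cells and at 13.0 FPKM in INAVA cells. The abundant PRDX1, a peroxiredoxin that SRXN1 repairs, stood at 816 and 720 FPKM at a position shared with MMACHC, and TXN, thioredoxin, at 564 and 541 FPKM. SOD1, CAT and CCS, which like SOD2 act on superoxide or peroxide or serve such an enzyme, lay below 0 with a median of -0.054, or -0.12 where a mean of 10 FPKM or more was asked for. SOD1, the cytosolic superoxide dismutase, stood at 370 and 327 FPKM and CAT, catalase, at 30.5 and 29.4 FPKM.

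NADPH feeds NQO1 and TXNRD1, and of 9 genes that supply it 8 lay below 0, with a median of -0.18 and 0 past 1.5-fold. TKT, a transketolase that rearranges sugar phosphates, stood at 296 FPKM in vector cells and at 266 FPKM in INAVA cells, a ratio of 0.900. TALDO1, a transaldolase of the same pathway, stood at 206 and 191 FPKM, a ratio of 0.930.

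Among 21 measured enzymes for quinones, aldehydes and xenobiotics, the group to which NQO1 belongs, 16 lay below 0 and 5 above, with a median of -0.14, which was -0.21 with a pseudocount of 0.1, with none, or over genes with a mean of 1 FPKM or more. AKR1C3, an aldo-keto reductase, was the lowest of them, at 10.4 FPKM in vector cells and at 4.91 FPKM in INAVA cells. ALDH3A2, a fatty aldehyde dehydrogenase, stood at 27.1 and 16.4 FPKM. Both were past 1.5-fold, while AKR1B1, aldose reductase, was higher at 396 and 498 FPKM without reaching it.

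Heme and iron genes, which act beside HMOX1, lay below 0 in 9 of 11 cases, with a median of -0.17. The median was -0.24 where a mean of at least 1 FPKM, or of at least 10 FPKM, was asked for. The ferritin subunits FTH1 and FTL, which store the iron that heme oxygenase frees, were past 1.5-fold lower while HMOX1 was higher. FTH1 stood at 2565 FPKM in vector cells and at 1458 FPKM in INAVA cells, a ratio of 0.569, and FTL stood at 3905 and 2304 FPKM, a ratio of 0.590. The level of FTL relative to FTH1 was 1.52 in vector cells and 1.58 in INAVA cells. SLC48A1, a heme transporter, stood at 16.4 and 8.58 FPKM, at a position shared with HDAC7. Ferritin genes have many processed pseudogenes, so their reads can be misassigned, and under quantile normalization FTL was no longer past 1.5-fold, at a log2 difference of -0.51.

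**Figure D4:**
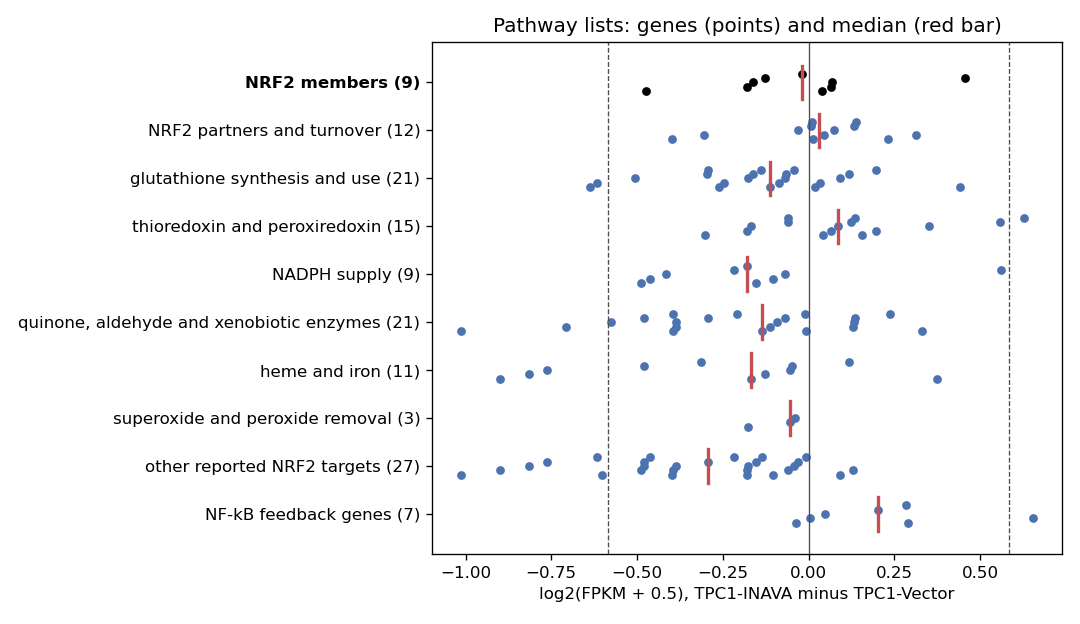
Difference of log2(FPKM + 0.5), TPC1-INAVA minus TPC1-Vector, of each measured gene in 10 lists, with the number of genes in brackets, a red bar at the list median and dashed lines at 1.5-fold. The 9 members (black points) have a median of -0.018, and the other reported NRF2 targets have one of -0.29.

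Beyond the 9 members, 27 of 31 other genes reported as NRF2 targets were measured, 28 of the 31 being also in a list above. Of the 27, 25 lay below 0 (92.6%) and 2 above, CBR3 and MGST1, with a median of -0.29, beside 49.2% of all genes below 0. Lower past 1.5-fold were 6 of 27 (22.2%), AKR1C3, SLC48A1, FTH1, FTL, SLC7A11 and TRIM16L, beside 1.45% of all genes, and 0 of 27 were higher past it, beside 2.24%. The list was chosen with earlier results of these data known, so these counts may reflect that choice, which was not tested. TRIM16L, a relative of the NRF2 target TRIM16, stood at 47.3 FPKM in vector cells and at 31.0 FPKM in INAVA cells. FTH1, FTL, TRIM16L and AKR1C3 have near-identical copies or pseudogenes. Without ferritins, TRIM16 genes and aldo-keto reductases, a choice made after seeing the data, 2 genes remained lower past 1.5-fold and the median was -0.18.

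NQO1, TXNRD1, GCLC, KEAP1 and, at -0.018, NFE2L2 lay on the same side of 0 as most of these targets. HMOX1 lay on the other at 0.46, and GCLM, SRXN1 and SOD2 lay just above 0, at 0.067, 0.038 and 0.069. Of the 36 members and other targets together, 30 lay below 0, with a median of -0.18, beside 49.2% of all genes below 0. Of the 30, 25 were other targets, while the 9 members were divided, 5 below and 4 above. The letters TGACNNNGC were in a window of 5 of the 18 other targets that have one. Of the 6 lower targets, 3 had a window and 0 of these held the letters. The median difference was 0.0018 over measured genes with the letters and 0.00069 over those without. Of the 3 members with the letters, TXNRD1 and KEAP1 were at -0.18 and -0.13 and GCLM at 0.067.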

How the data were processed

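RNA-seq libraries of TPC1-Vector and TPC1-INAVA (2 per group) were summarised by the authors to 1 deposited FPKM value per gene and group. The submitters' processing notes name CASAVA, Cufflinks 2.1.1, Cuffdiff and hg38, and the annotation and strand setting are not given in the sources used here. Columns with the authors' log2 ratio, p-value and q-value hold the authors' own comparison of the groups and were not used. In the TPC1-Vector column 1 entry holds 77.4% of the sum, so values were not rescaled to column totals, and 2612 genes share their position with another gene.

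Differences were computed as log2(FPKM + 0.5), TPC1-INAVA minus TPC1-Vector, for genes whose mean level was 0.5 FPKM or more (12305 of 13165). From 1 FPKM value per group no test can be made, so genes were called past 1.5-fold and counted beside the share of all genes. The self-check was made on simulated data. Every member was named and, in each list, every gene past 1.5-fold and, where fewer than 3, the most abundant genes up to 3. CBR3, MGST1, BTRC, MAFK, GPX1, NFKB2 and BIRC3 were named after their values were seen, and not every gene covered by the rule is reported. The members and lists were chosen with earlier results of these data known. Alternatives were other pseudocounts, scalings, filters, thresholds and neighbour distances. Neighbours were genes at 1 FPKM or more starting within 1 Mb. Promoter windows came from RefSeq. Python 3.11.15, numpy 2.4.6, pandas 2.3.3 and matplotlib 3.10.9 were used.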

Additional observations from a re-analysis of the deposited data

How the results depend on the processing

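No paired analysis was possible because the table holds 1 value per gene and group, and for the same reason leaving out a library could not be run. The differences of the 9 genes were recomputed with 3 other pseudocounts and 3 scalings, and 0 of 54 values changed sign. A pseudocount cannot change the sign of a difference, so only the scalings could have done so. Median-of-ratios, upper-quartile and quantile scaling moved the median over all genes little, from 0.0033 to -0.00053, 0.0078 and -0.0063. The count of sign changes therefore says little about how firm the signs are. NQO1 ranged from -0.50 to -0.47 and HMOX1 from 0.43 to 0.46, while NFE2L2 ranged from -0.052 to -0.013. At a lower threshold (0.32 on the log2 scale) 2 of the 9 genes were past the threshold instead of 0. The share of all genes past the threshold was 3.7% and became 6.02% with no pseudocount, 2% at a mean of at least 10 FPKM, 14.4% at the lower threshold and 0.853% at 2-fold. Of the other reported NRF2 targets, 6 were lower past 1.5-fold, 13 past the lower threshold, 1 at 2-fold and 2 without ferritins, TRIM16 genes and aldo-keto reductases, where fewer genes are counted and the median was -0.179 in place of -0.294. In every alternative run, 2 of these targets lay above 0. FPKM values combined over libraries give neither counting error nor spread, so none of the 9 differences can be told from 0 by a test made from these values. This holds for NQO1 and HMOX1 too, and the differences of NFE2L2, SRXN1, GCLM and SOD2 were the smallest.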
